A study of Mus musculus with 2 samples.

Results

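The genes described are 10 regulators of G protein signalling: the RGK-type GTPase genes Gem, Rrad and Rem1, and the RGS genes Rgs2, Rgs3, Rgs4, Rgs10, Rgs12, Rgs16 and Rgs19. They were taken by symbol from a table of 23466 genes and loci, and each symbol stood on a single row. The list was selected on the FPKM difference between the libraries, Gem being known as much higher and Rgs4 as much lower after treatment, so the values below are descriptions and carry no test. The libraries were bulk RNA-seq of cultured mouse cells that the submitters call primary microglia, macrophages that reside in brain and spinal cord: 1 from a DMSO vehicle control and 1 from cells exposed at once to iron (1600 μM) and RSL3 (1 μM). RSL3 inactivates GPX4, the enzyme that detoxifies lipid hydroperoxides, and adding it with iron was meant to trigger ferroptosis, a cell death driven by iron-dependent lipid peroxidation. Strain, age, duration of treatment and number of pooled animals are not stated in the labels. Both agents were added to the same culture, so the effect of either alone cannot be told apart. With 1 library per condition, no difference has a replicate check.

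RGS proteins switch off signalling by heterotrimeric G proteins. They bind the GTP-loaded alpha subunit and speed up its hydrolysis of GTP, which returns the alpha subunit to the beta-gamma dimer and shortens the response to a receptor. RGK proteins are small GTPases of the RAS superfamily that act on other targets: they bind the beta subunits of voltage-gated calcium channels and lower the calcium current. Several genes of both families are transcribed within minutes to hours of calcium, cAMP or stress signals and so act as feedback brakes.

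Values are FPKM, which divides a gene's fragments by its transcript length and by the size of the library, and levels of different genes are compared on this per-length scale. A gene counted as measured at 1 FPKM or more in either library, which held for 11771 genes. Where a pair of levels is given, the DMSO library comes first. Log2 changes are iron plus RSL3 minus DMSO, taken after adding 1 FPKM, which understates the change of weak genes, and ratios are of the FPKM values themselves. Over all measured genes the log2 change had a median of -0.38 and quartiles of -0.73 and 0.01, so a gene at 0 stood above most measured genes. The low values were partly stepped. Among genes with a single annotated transcript, 32.8% (DMSO) and 35.5% (iron plus RSL3) of low values were within 0.05 of a whole step, against 10% for an even spread. The step was picked as the densest of these same values, so part of that excess was built in, and most low values were off it. Taking a step as 1 fragment gives about 16.5 fragments per FPKM and kilobase with DMSO and 17.98 after iron plus RSL3. Fragment numbers below are estimates on that basis, for the longest annotated coding transcript unless stated, and their exact 95% binomial intervals cover counting error only.

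The label of the cells went against their markers in both libraries. Of 14 microglial and leukocyte markers, 9 stayed under 1 FPKM in both, and Cx3cr1, Aif1, Fcrls and Sall1 were listed at 0. The summed level of that list was 116.5 FPKM with DMSO and 91.1 FPKM after iron plus RSL3, of which Tmem119, a gene that other cells express too, made up 59.1 and 26.1 FPKM. Among the weak ones, Trem2 (0.73 and 2.36 FPKM), C1qa (0.48 and 1.88 FPKM) and Itgam (0.15 and 0.67 FPKM) were higher after iron plus RSL3. Tyrobp, Spi1 and Ptprc were higher too, while Csf1r (0.47 and 0.39 FPKM) and P2ry12 (0.051 and 0.036 FPKM) were lower. Of 15 fibroblast and mural cell markers, 10 were at 10 FPKM or more in both libraries, and that list summed to 4712 and 3765 FPKM, with Kcnj8 and Abcc9 listed at 0. The part of any such cells in the levels below was not tested, and in bulk RNA fewer cells of a type cannot be told apart from less RNA per cell.

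Of the 10 genes, 9 were measured and Rem1 was not. On log2(FPKM + 1), 4 of the 9 were at least 2-fold higher after iron plus RSL3 (Gem, Rgs2, Rgs16 and Rrad), beside 4.25% of all measured genes. At least 2-fold lower was 1 of the 9, Rgs4, beside 11.8% of all measured genes. The members were chosen with these values in view, so the counts are not read against those shares. Over all measured genes, 500 were higher and 1384 lower by this rule, a split that became 685 and 803 when the libraries were centred on the median ratio of abundant genes. The other 4 measured members (Rgs3, Rgs10, Rgs12 and Rgs19) lay between.

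**Figure D1:**
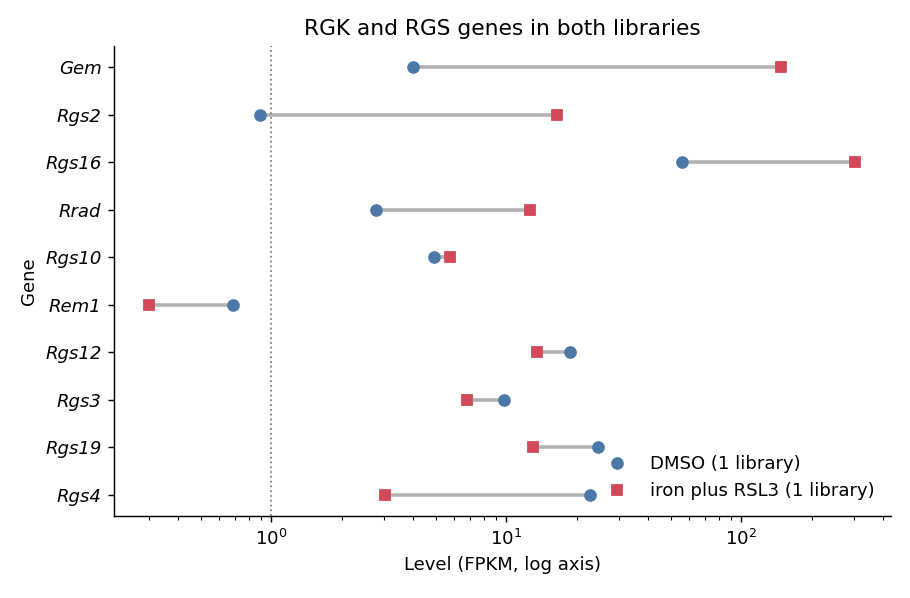
Level of each gene in FPKM (log axis) in the DMSO library (blue circles) and the iron plus RSL3 library (red squares), 1 library each, ordered by log2 change, with a dotted line at 1 FPKM. Gem runs from 4.01 to 147.9 FPKM and Rgs4 from 22.8 down to 3.04 FPKM, while Rem1 stays left of the line in both libraries.

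Among the RGK genes, Gem and Rrad were higher after iron plus RSL3 and Rem1 was near the limit of detection in both. Gem (ENSMUSG00000028214, chromosome 4, 11704457 to 11714752, plus strand, GRCm38) encodes the RGK protein that was found in mitogen-stimulated lymphocytes. It was at 4.01 FPKM with DMSO and 147.9 FPKM after iron plus RSL3, 36.9 times as high, a log2 change of 4.89. Gem thus went from below most measured genes, at percentile 23.8 of the control levels, to percentile 96.0 of the treated levels, and its change ranked 8 from the top of 11771. Its annotated coding transcripts are of nearly the same length, 2006 and 1994 bases, and about 132 and 5336 fragments give a ratio between 31.1 and 44.3.

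Rrad, also called Rad, is an inhibitor of cardiac calcium channels and a p53 target (ENSMUSG00000031880, chromosome 8, 104628070 to 104631327, minus strand). It was at 2.79 FPKM with DMSO and 12.6 FPKM after iron plus RSL3, 4.52 times as high, a log2 change of 1.84. Its estimated 72 and 357 fragments give a ratio between 3.52 and 5.93, widening to 2.78 to 7.74 on the shortest coding transcript of 435 bases. An antisense locus overlaps 496 bases of Rrad, and the protocol names no step that keeps strand.

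Rem1 encodes another calcium channel inhibitor of the family, known from heart and muscle (ENSMUSG00000000359, chromosome 2, 152626951 to 152635198, plus strand). It was at 0.69 FPKM with DMSO and 0.30 FPKM after iron plus RSL3. These values stand for about 19 and 9 fragments, and the ratio of 0.44 has an interval from 0.173 to 1.01, so a difference was not detectable at this depth. The remaining gene of the family, Rem2, was at 0.57 and 1.33 FPKM. Its log2 change of 0.57 passed 2-fold with a pseudocount of 0.1 FPKM. Summed over Gem, Rrad and Rem1, the level was 7.48 FPKM with DMSO and 160.8 FPKM after iron plus RSL3, most of it Gem.

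The R4 family holds the small RGS proteins that consist of little more than the RGS domain, and its 4 genes described here held both the strongest increases and the strongest decrease among the RGS genes. Rgs2 encodes a regulator that prefers Gq (ENSMUSG00000026360, chromosome 1, 143999338 to 144004161, minus strand). It was at 0.89 FPKM with DMSO and 16.4 FPKM after iron plus RSL3, 18.3 times as high, a log2 change of 3.20. The control level was under 1 FPKM, so Rgs2 counted as measured through the treated library alone. About 45 and 890 fragments give a ratio between 13.4 and 25.02, widening to 9.06 to 39.2 on the shortest coding transcript of 588 bases. With a pseudocount of 0.1 FPKM its log2 change became 4.05.

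Rgs16 encodes a regulator of Gi and Gq signalling that is induced by many stimuli and, in mouse liver, by fasting (ENSMUSG00000026475, chromosome 1, 153740349 to 153745468, plus strand). It was at 56.1 FPKM with DMSO and 304.9 FPKM after iron plus RSL3, 5.43 times as high, a log2 change of 2.42. Rgs16 was the most abundant of the 10 genes in both libraries, and its 248.8 FPKM difference exceeded that of Gem, which was 143.9 FPKM. It has 1 annotated coding transcript, and about 2163 and 12827 fragments give a ratio between 5.19 and 5.69. An antisense locus overlaps 1917 bases of Rgs16. As the protocol names no step that keeps strand, reads of that locus may be counted with those of Rgs16.

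Rgs4 encodes a regulator of Gi and Gq signalling best known from brain, heart and smooth muscle (ENSMUSG00000038530, chromosome 1, 169741477 to 169747642, minus strand). It was at 22.8 FPKM with DMSO and 3.04 FPKM after iron plus RSL3, 7.51 times as high with DMSO, a log2 change of -2.56. Its change ranked 6 from the bottom of 11771, and its level moved from percentile 72.8 to percentile 26.7. About 1104 and 161 fragments give a control to treated ratio between 6.34 and 8.89.

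Rgs3 encodes a regulator with long and short isoforms, the long ones carrying a PDZ domain (ENSMUSG00000059810, chromosome 4, 62559847 to 62704001, plus strand). It was at 9.74 and 6.79 FPKM, with a log2 change of -0.46, within the interquartile range of all measured genes. It has 8 annotated coding transcripts from 496 to 4698 bases, and the table does not separate them. An antisense locus overlaps 6036 bases of Rgs3. The R4 genes together summed to 89.6 FPKM with DMSO and 331.2 FPKM after iron plus RSL3.

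The RefSeq sequences (GRCm38.p6) of the 250 bases before the annotated start are shown for the 3 RGS genes with the largest differences, Rgs2 and Rgs16, which were higher, and Rgs4, which was lower. Each reads 5′ to 3′ towards the start, on the gene's strand. Capitals mark matches to the cAMP response element core TGACG on either strand and to the TATA box TATAAA.
Rgs2, chr1:144004150-144004399, minus strand: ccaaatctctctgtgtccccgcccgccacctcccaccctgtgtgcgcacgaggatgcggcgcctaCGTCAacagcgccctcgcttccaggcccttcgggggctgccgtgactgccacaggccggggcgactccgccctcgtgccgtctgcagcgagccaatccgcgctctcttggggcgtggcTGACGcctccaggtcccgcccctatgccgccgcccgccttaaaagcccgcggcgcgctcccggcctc
Rgs16, chr1:153740103-153740352, plus strand: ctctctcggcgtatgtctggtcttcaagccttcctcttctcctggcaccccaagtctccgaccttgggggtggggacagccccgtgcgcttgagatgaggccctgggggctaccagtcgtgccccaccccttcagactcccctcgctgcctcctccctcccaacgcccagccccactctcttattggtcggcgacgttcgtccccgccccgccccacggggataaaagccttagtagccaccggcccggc
Rgs4, chr1:169747643-169747892, minus strand: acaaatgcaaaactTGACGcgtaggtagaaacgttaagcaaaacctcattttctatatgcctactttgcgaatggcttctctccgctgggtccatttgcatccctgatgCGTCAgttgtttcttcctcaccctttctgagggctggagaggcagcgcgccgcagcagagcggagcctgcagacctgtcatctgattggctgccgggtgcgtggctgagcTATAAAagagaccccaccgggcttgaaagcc

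The Rgs2 window held the TGACG core 185 to 181 and 67 to 63 bases before the start, and the Rgs4 window held it 236 to 232 and 141 to 137 bases before the start. Rgs2 was higher and Rgs4 lower, and any part of the core in these differences was not tested. The Rgs4 window also held TATAAA 31 to 26 bases before the start. The Rgs16 window held none of the motifs searched. G and C made up 72.4% of the Rgs2 window, 66.4% of the Rgs16 window and 53.6% of the Rgs4 window, against a median of 52.4% over all windows.

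Windows were matched by symbol for 8 of the 10 genes, 12 windows in all, and those of Gem and Rrad were not matched. The search covered both strands for TGACG, its palindrome TGACGTCA, the AP-1 site TGANTCA, the heat shock unit GAANNTTC, the antioxidant response core TGACNNNGC and the TATA box named above. The letters TGACG lie within TGACGTCA and can overlap TGACNNNGC. TGACG was in 3 of the 12 windows and in 17.8% of all 32851 windows of this length. TATAAA was in 3 of the 12 and in 12.4% of all. The antioxidant response core was in 2 of the 12, those of Rem1 and of an Rgs12 start, and in 10.2% of all. TGANTCA was in 1 of the 12, at another Rgs12 start, and in 6.75% of all. GAANNTTC (6.69% of all windows) and TGACGTCA (1.55%) were in none of the 12. A match describes letters only and was not tested as a site.

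Outside the R4 family, all 3 genes lay within 2-fold between the libraries. Rgs10 encodes a short regulator of Gi that is known to be abundant in microglia and other immune cells, where mouse studies describe it as a brake on inflammatory activation (ENSMUSG00000030844, chromosome 7, 128373621 to 128418758, minus strand). It was at 4.90 FPKM with DMSO and 5.76 FPKM after iron plus RSL3, a log2 change of 0.20. On about 71 and 91 fragments the ratio of 1.17 has an interval from 0.85 to 1.62, so a difference was not detectable at this depth. A further transcript annotated on the same strand overlaps 3374 bases of Rgs10.

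Rgs12 encodes a large scaffold with PDZ, RAS-binding and GoLoco domains (ENSMUSG00000029101, chromosome 5, 34949445 to 35039644, plus strand). It was at 18.7 and 13.4 FPKM, with a log2 change of -0.45, close to the median of all measured genes. An antisense locus overlaps 1576 bases of it. Rgs19, also called GAIP, encodes a regulator of Gi of the RZ family that sits on membranes (ENSMUSG00000002458, chromosome 2, 181688419 to 181693977, minus strand). It was at 24.5 and 13.0 FPKM, 1.88 times as high with DMSO. The log2 change of -0.86 lay below the interquartile range of all measured genes. Rgs19 passed 2-fold, at -1.01, only when the FPKM totals were made equal. Rgs10, Rgs12 and Rgs19 together summed to 48.1 FPKM with DMSO and 32.2 FPKM after iron plus RSL3.

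**Figure D2:**
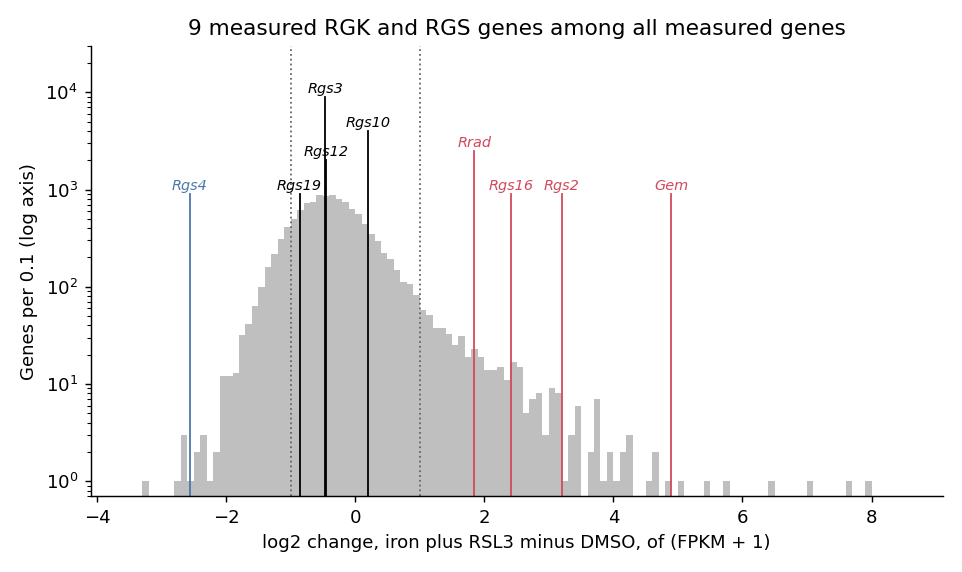
Number of measured genes (log axis) per 0.1 of log2 change on log2(FPKM + 1), iron plus RSL3 minus DMSO, with the 9 measured genes marked by vertical lines whose height has no meaning and dotted lines at 2-fold. Gem (4.89), Rgs2 (3.20), Rgs16 (2.42) and Rrad (1.84) lie in the right tail and Rgs4 (-2.56) in the left tail, while Rgs3, Rgs10, Rgs12 and Rgs19 lie between the dotted lines.

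These differences altered the make-up of the RGS transcripts. The 7 RGS genes summed to 137.6 FPKM with DMSO and 363.4 FPKM after iron plus RSL3. Rgs16 made up 40.8% of that sum with DMSO and 83.9% after iron plus RSL3. Rgs19, Rgs4 and Rgs12 followed with DMSO, at 17.8%, 16.6% and 13.6%. In the treated library Rgs4 made up 0.84% of the sum, while Rgs2 stood second with 4.51%, up from 0.65%. The order of levels with DMSO was Rgs16, Rgs19, Rgs4, Rgs12, Rgs3, Rgs10 and Rgs2, and after iron plus RSL3 Rgs16, Rgs2, Rgs12, Rgs19, Rgs3, Rgs10 and Rgs4. With 1 library each, neighbours in these orders cannot be told apart beyond counting error.

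Most other RGS genes were low. Of 21 genes of the table with an Rgs number as symbol, 13 were under 1 FPKM in both libraries and 5 of these were listed at 0 in both. The other measured one was Rgs17, an RZ family gene, at 1.85 and 3.09 FPKM, with a log2 change of 0.52. None of the 6 other R4 genes was measured. Rgs5, a marker of pericytes, was at 0.27 and 0.20 FPKM, and Rgs1, a gene of activated leukocytes, at 0.12 and 0.36 FPKM.

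The low genes included direct neighbours of the ones that differed. On chromosome 1, Rgs2 lies at one end of a group with Rgs13, Rgs1, Rgs21 and Rgs18, none above 0.36 FPKM in either library, and the gap from Rgs2 to Rgs13 is 134.5 kb. Rgs16 lies 40.0 kb from Rgs8, which was at 0.06 FPKM with DMSO and listed at 0 after iron plus RSL3. Rgs4 lies 45.7 kb from Rgs5. All of these neighbours were under 1 FPKM in both libraries, too low to show whether they differed too.

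The genes whose pair of levels lay closest to those of Gem were Gdf15, a stress-induced cytokine gene (3.64 and 113.2 FPKM, distance 0.40), Zfp36, which encodes an mRNA-decay protein (8.64 and 157.4 FPKM, distance 0.95), and Fos, an AP-1 subunit gene (3.02 and 77.2 FPKM, distance 0.98). The distance is Euclidean over the log2(FPKM + 1) of the 2 libraries. Closest to Rgs4 were Pcdh18, a protocadherin gene (22.7 and 2.88 FPKM, distance 0.056), Lmod1, a smooth muscle leiomodin gene (23.3 and 3.48 FPKM, distance 0.15), and 1600012H06Rik (18.03 and 3.98 FPKM, distance 0.44). Such likeness rests on 2 libraries only.

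The next lists hold the G protein subunits on which RGS proteins act. Each list here and below is small. The shares of all measured genes (4.25% higher and 11.8% lower) would give few genes past 2-fold in any of them. Of 10 measured alpha subunit genes among 16, none was past 2-fold, and their median log2 change of -0.48 stood beside -0.38 for all measured genes. Gnai2, the most abundant Gi subunit gene, was at 190.2 and 167.9 FPKM, followed by Gnai3 at 66.7 and 50.4 FPKM. Gna11 and Gnaq, which encode Gq-type subunits, were at 36.4 and 22.9 FPKM and at 12.8 and 8.43 FPKM, and Gna12, a G12-type subunit gene, at 23.4 and 15.3 FPKM. Gna13, also of the G12 type, went the other way, at 15.3 and 20.4 FPKM. Of the 5 measured Gq and G12 genes, 1 was above 0 and 4 below. Gnas, which encodes Gs alpha and is not a usual target of these RGS proteins, was at 722.5 and 960.1 FPKM. Of 12 measured beta and gamma subunit genes none passed 2-fold, with Gnb1 at 128.0 and 113.6 FPKM and Gnb2 at 127.1 and 130.1 FPKM. With a pseudocount of 0.1 FPKM 1 of the 12 was higher and 1 lower, and with equal totals 1 was lower.

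Among effectors and other regulators, few genes passed 2-fold. Of 7 measured phospholipase C beta and adenylyl cyclase genes, 1 was past 2-fold, Plcb3, a Gq effector gene, lower at 23.5 and 10.8 FPKM (log2 change -1.05). None passed 2-fold after centring, and 2 were lower with a pseudocount of 0.1 FPKM, where the adenylyl cyclase gene Adcy9 (1.03 and 0.33 FPKM) joined Plcb3. Of 11 measured genes for proteins with RGS-like domains, none passed 2-fold, with the receptor kinase gene Grk6 at 38.3 and 24.5 FPKM and the guanine nucleotide exchange factor gene Arhgef1 at 34.1 and 20.2 FPKM. None of 7 measured G protein accessory genes passed 2-fold, among them the alpha subunit chaperone gene Ric8a at 17.8 and 14.2 FPKM and Gpsm1, which encodes a GoLoco protein, at 11.9 and 8.55 FPKM.

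Targets and partners of RGK proteins were looked at next. Of 18 voltage-gated calcium channel subunit genes, 6 were measured and none passed 2-fold. The measured ones included 3 of the 4 beta subunit genes, whose products RGK proteins bind: Cacnb3 was at 18.6 and 19.7 FPKM, Cacnb1 at 1.17 and 1.29 FPKM and Cacnb2 at 1.06 and 0.60 FPKM. Among the other subunits, the pore gene Cacna1c was at 7.03 and 3.60 FPKM, with the lowest log2 change of the measured ones, -0.80. The T-type pore gene Cacna1g was at 9.08 and 6.86 FPKM. Of the 6, 2 were above 0 and 4 below. Of 15 partner genes of Gem and its relatives (calmodulins, 14-3-3 proteins and others), 14 were measured and 1 was past 2-fold in each direction. Ezr, which encodes the membrane-cytoskeleton linker ezrin, was at 6.25 and 13.7 FPKM (log2 change 1.02, under 2-fold with equal totals). Calm3, a calmodulin gene, was at 126.7 and 59.6 FPKM (log2 change -1.08, under 2-fold after centring).

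RGS4, RGS5 and RGS16 proteins are known substrates of the cysteine branch of the N-degron pathway, in which ADO oxidises the exposed cysteine, ATE1 adds arginine and UBR ligases mark the protein for the proteasome. RNA values say nothing of those proteins. Of 8 measured genes of that pathway, none was 2-fold higher and 2 were 2-fold lower, beside 4.25% and 11.8% of all measured genes. Ate1 was at 18.2 FPKM with DMSO and 6.79 FPKM after iron plus RSL3, a log2 change of -1.30, and Ado at 8.72 and 3.57 FPKM, with a log2 change of -1.09. After centring, 1 of them remained past 2-fold, and with a pseudocount of 0.1 FPKM 3 of the 8 were lower. The median of the list, -0.44, stood close to that of all measured genes.

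**Figure D3:**
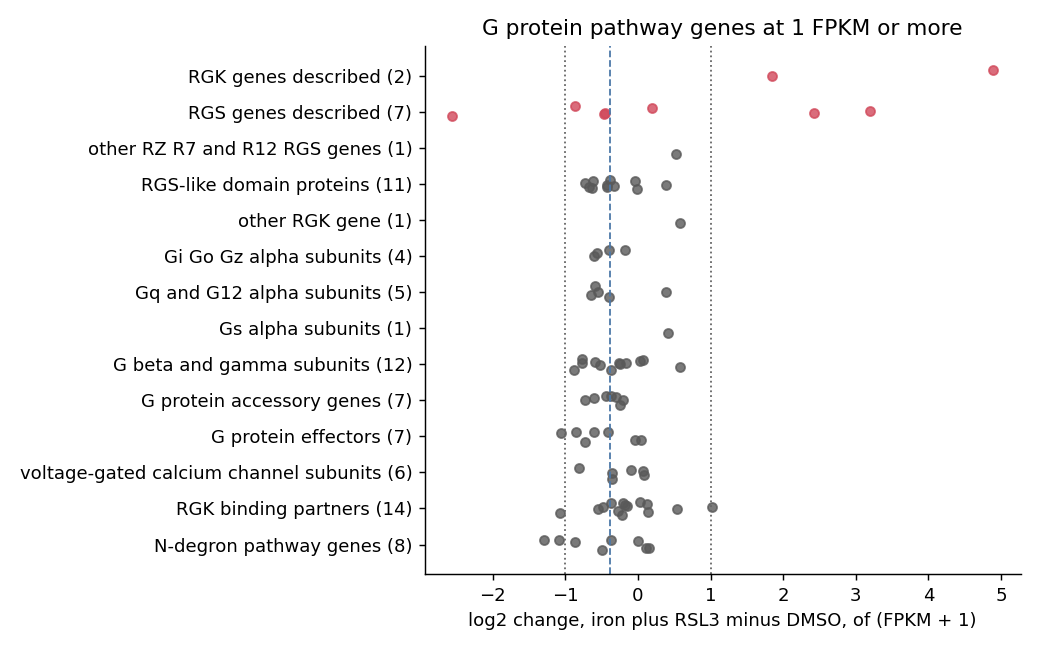
Log2 change on log2(FPKM + 1), iron plus RSL3 minus DMSO, of each measured gene of the RGK and RGS sets (red) and of the pathway lists (grey), with the number measured in brackets, dotted lines at 2-fold and a dashed line at the median of all measured genes, -0.38. Of 77 measured pathway genes, 1 was 2-fold higher and 4 were 2-fold lower.

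Over all 13 pathway lists, 77 of 127 genes were measured, of which 1 was 2-fold higher and 4 were 2-fold lower, beside 4.25% higher and 11.8% lower among all measured genes. Their median log2 change was -0.37, beside -0.38. These lists hold none of the 10 genes and their directions were not used to choose them, although earlier results of the same libraries were known.

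**Figure D4:**
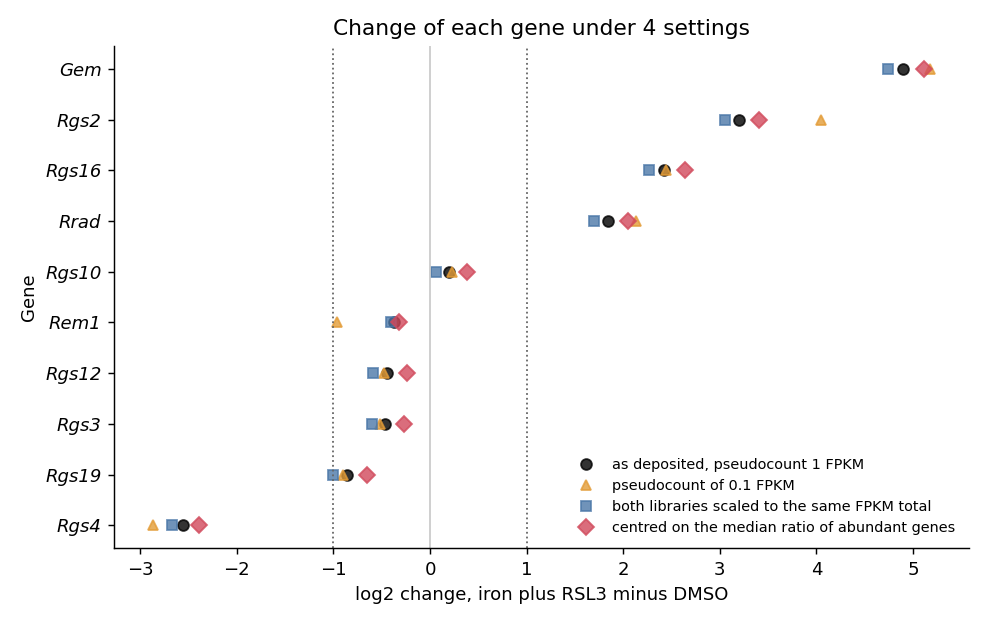
Log2 change of each gene, iron plus RSL3 minus DMSO, as deposited with a pseudocount of 1 FPKM (black), with a pseudocount of 0.1 FPKM (orange), with equal FPKM totals (blue) and centred on the median ratio of abundant genes (red), with dotted lines at 2-fold. Gem stays between 4.74 and 5.17 and Rgs4 between -2.87 and -2.39, while Rgs19 touches the lower 2-fold line at -1.01 with equal totals.

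None of the 10 log2 changes changed sign under the settings tried. Gem ranged from 4.74 to 5.17, Rgs2 from 3.05 to 4.05, Rgs16 from 2.26 to 2.64, Rrad from 1.70 to 2.14 and Rgs4 from -2.87 to -2.39. Rgs10 ranged from 0.06 to 0.38.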

How the data were processed

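RNA was extracted with TRIzol, poly(A) RNA was captured and libraries were built from selected fragments, per the labels' protocols. The deposited table holds FPKM values made by the authors. Per the submitters' processing notes, HISAT2, StringTie, DESeq2 and edgeR and the build GRCm38 were used, with versions and the annotation release not given in the sources used here. Each column carries the library name of a sample's description. Of 23466 rows, 22022 were found by identifier in GENCODE M21 (GRCm38), which gave coordinates and lengths. The DMSO column summed to 385141 FPKM and the iron plus RSL3 column to 429250 FPKM.

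Log2(FPKM + 1) was compared over genes at 1 FPKM or more in either library, with a size rule of 2-fold and no test, using Python 3.11.15, numpy 2.4.6, pandas 2.3.3 and scipy 1.17.1. FPKM is relative to the mapped fragments, so genes that gain share lower all others. The step of low values was their densest product of FPKM and transcript length among single-transcript genes, and whole fragments were not recovered. The calculation was tested on simulated data. The members and lists were chosen with earlier results of these data known. Named genes were all members, the 2 list genes furthest past 2-fold each way (failing that, the 2 with the highest level), the 3 genes most like Gem and Rgs4, and markers, not all of which are reported here, and a few other list genes were chosen after their values were seen. Other settings tried were a smaller pseudocount, other minimum levels, 2 rescalings and a smaller fold.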

Additional observations from a re-analysis of the deposited data

How the results depend on the processing

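The count of 4 genes 2-fold higher was the same under every setting tried. The count of 1 lower became 2, with Rgs19, when both libraries had the same FPKM total and with a size rule of 1.5-fold. The median log2 change of the measured members was 0.20, 0.063 with equal totals, 0.38 after centring on the median ratio of genes at 10 FPKM or more, and -0.089 with no filter, where Rem1 enters. Of 50 recomputed member changes, 49 kept their direction and their side of 2-fold, and Rgs19 passed it at -1.01 with equal totals. The settings that changed only the minimum level could not alter a gene's log2 change, so their part of this count was fixed in advance. Of 130 recomputed pathway list counts, 121 stayed within 1.5 times, most of them counts of 0. Over all genes, the 1384 lower became 2379 with a pseudocount of 0.1 FPKM and 803 after centring, and a size rule of 1.5-fold gave 975 higher and 4089 lower. No paired analysis was possible because each condition had 1 library, and no library could be left out. Depth limits Rem1 and Rgs10, whose counting intervals include a ratio of 1.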
